A study of Mus musculus with 54 samples.

Results

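The genes described here are 10 circadian clock genes of the mouse small intestine, taken by symbol from tables that hold 25229 gene symbols: Arntl, Clock, Npas2, Per1, Per2, Per3, Cry1, Nr1d1, Dbp and Ciart. All 10 had reads. RNA was sequenced from ileum, jejunum and duodenum of lactating females at day 7 of lactation, of virgin females of matched age, and of virgin males, giving 9 groups of 6 libraries. The mice ate a standard chow (RM3 while breeding, RM1 for maintenance and the experiment), and no transgene or drug is named in the labels. No time of day of tissue collection was among the labels used here, so the clock genes were compared to ask whether the groups stood at different phases of the day or of feeding. The labels do not say whether libraries of equal number came from 1 animal, and all p-values below measure the spread between these libraries.

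The circadian clock of mammalian cells is a loop of transcription. BMAL1, the protein of Arntl, pairs with CLOCK or its relative NPAS2 and switches on genes through E-box sequences. Among these genes are Per1, Per2, Per3 and Cry1, whose proteins return to the nucleus and block the pair, and Ciart, which encodes another repressor of it. Nr1d1 encodes REV-ERBα, which represses Arntl, and Dbp encodes a factor that drives output genes through D-box sequences. In tissues with a running clock Arntl and Npas2 peak at about the opposite phase to Nr1d1 and Dbp, and in the intestine meal times can set the phase. Animals that differ in phase can therefore show opposed levels of these 2 arms.

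The promoter sequences show where the loop can be read in the genome. RefSeq windows of 250 bases before to 50 after a transcription start (GRCm38.p6) were at hand for 9 of the 10 genes, in 13 windows, and none for Per2. Both strands were searched for the E-box CACGTG, the related E-prime box CACGTT (which reads AACGTG on the other strand), the D-box as TTATGTAA or TTACGTAA, and the ROR element bound by REV-ERBα and its activating relatives as TAGGTCA or TGGGTCA. These motifs do not overlap each other in the members' windows. The 4 windows below hold a match of each kind, in capitals, and are written 5′ to 3′ in the direction of the gene. Ciart lies at chr3:95882179-95882478 (minus strand), Cry1 at chr10:85185005-85185304 (minus), Per3 at chr4:151044616-151044915 (minus) and Arntl at chr7:113207261-113207560 (plus).
Ciart: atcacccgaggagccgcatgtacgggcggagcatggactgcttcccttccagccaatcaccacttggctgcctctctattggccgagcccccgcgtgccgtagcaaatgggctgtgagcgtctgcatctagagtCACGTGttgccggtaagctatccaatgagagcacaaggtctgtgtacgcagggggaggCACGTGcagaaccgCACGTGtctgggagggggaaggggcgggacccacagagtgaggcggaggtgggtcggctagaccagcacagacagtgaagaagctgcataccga
Cry1: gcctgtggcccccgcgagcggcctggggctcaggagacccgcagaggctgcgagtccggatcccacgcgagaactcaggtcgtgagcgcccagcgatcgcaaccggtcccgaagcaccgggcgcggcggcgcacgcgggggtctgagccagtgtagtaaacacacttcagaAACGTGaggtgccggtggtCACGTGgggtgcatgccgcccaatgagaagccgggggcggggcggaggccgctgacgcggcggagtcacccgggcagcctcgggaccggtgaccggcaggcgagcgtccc
Per3: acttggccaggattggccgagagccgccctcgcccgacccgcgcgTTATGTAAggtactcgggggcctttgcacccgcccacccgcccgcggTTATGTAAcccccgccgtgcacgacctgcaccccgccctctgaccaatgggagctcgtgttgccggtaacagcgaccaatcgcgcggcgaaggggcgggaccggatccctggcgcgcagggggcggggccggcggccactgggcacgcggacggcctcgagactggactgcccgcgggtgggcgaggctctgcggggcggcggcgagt
Arntl: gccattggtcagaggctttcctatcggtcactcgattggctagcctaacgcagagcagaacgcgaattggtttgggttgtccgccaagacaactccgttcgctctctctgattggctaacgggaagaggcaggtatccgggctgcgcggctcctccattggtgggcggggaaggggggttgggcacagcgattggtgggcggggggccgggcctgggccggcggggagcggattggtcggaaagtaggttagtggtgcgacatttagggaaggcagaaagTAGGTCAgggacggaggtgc
Ciart, the repressor gene, holds 3 E-boxes, which begin 116, 58 and 44 bases before the start. Cry1 holds an E-box 60 bases before the start and an E-prime box 79 bases before it. Per3 holds 2 D-boxes, at 205 and 158 bases before the start, and Arntl holds 1 ROR element that begins 30 bases after the start. Outside these 4, Per1 had an E-box 166 bases before the start and Nr1d1 an E-prime box 28 bases before it. Of 32851 mouse promoter windows of the same length, 7.15% held the E-box, 4.68% the E-prime box, 1.06% the D-box and 6.45% the ROR element. A match is a run of letters only, and the windows of Clock, Npas2 and Dbp held none of them.

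Of the 54 libraries, 52 were used. The library labelled lactating female duodenum 3 carries a liver profile and the one labelled lactating female jejunum 3 lies close to the duodenum, so both were left out and the lactating groups of these sections hold 5 libraries. With both included as labelled, the count of members called under lactation was 0 in jejunum and in duodenum too. The 52 hold 18479722 to 27604041 reads assigned to genes (median 22233839). The section labels held in all 52: the duodenum markers Tmprss15 and Pdx1 summed to 57.0 to 331 CPM (a gene's reads relative to all gene reads of its library) in duodenum and at most 0.778 elsewhere, and the ileum markers Fabp6 and Slc10a2 to 1919 to 7261 CPM in ileum and at most 27.6 elsewhere. Virgin female duodenum 3 carried 255.3 CPM of summed liver markers, where the other lactating and virgin female duodenum libraries used had at most 16.7, and leaving it out changed no count of members called under lactation. Levels are given as CPM after TMM scaling, which weighs out genes that differ most between libraries. Whole tissue was sequenced, so fewer cells of a type and less RNA per cell cannot be told apart.

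The members spanned a wide range of levels. Compared per kilobase of exon, Nr1d1 was the highest member in virgin female jejunum and duodenum, at 45.9 ± 10.4 and 40.1 ± 8.9 RPKM (CPM per kilobase; SD, n = 6 each). In virgin female ileum Cry1 at 12.7 ± 1.9, Npas2 at 12.5 ± 2.1 and Nr1d1 at 11.4 ± 7.6 RPKM did not differ beyond their spread. Ciart was the lowest in all 3, at 0.242 ± 0.1001 RPKM in ileum, 0.224 ± 0.233 in jejunum and 0.305 ± 0.333 in duodenum. It had 633 reads over the 52 libraries, from 0 to 52 in a library, and a gene on the other strand (C920021L13Rik) overlaps it, so its values carry the largest counting error. In the mouse annotation of build GRCm38 (GENCODE M21), whose exon lengths are used here, Arntl spans chr7:113207465-113314126 on the plus strand, Dbp chr7:45705088-45710203 on the plus strand and Nr1d1 chr11:98767932-98775333 on the minus strand. Nr1d1 overlaps Thra and Dbp overlaps Sphk2, both on the opposite strand. Per3 overlaps Camta1, Clock 2 minor genes and Npas2 1 on the same strand, so reads there could have been split or dropped in counting. The libraries keep strand, with 97.9% to 98.6% of gene reads on the sense side, and reads of the opposite strand were counted apart.

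How much a member varied within a group differed strongly between genes. Clock was the steadiest, with a coefficient of variation of 3.97% to 10.5% over the 9 groups. Dbp varied widely in every group, at 45.0% to 141%, though Nr1d1 varied more in lactating (69.4%) and virgin female ileum (66.9%) and Ciart more in virgin female jejunum (104%) and virgin male duodenum (106%). In lactating female duodenum Dbp had 43.3, 9.90, 13.8, 6.83 and 2.63 CPM, and in virgin female duodenum 84.5, 11.4, 11.9, 12.7, 5.22 and 5.38 CPM. In each set 1 library stood far above the rest, and the sets overlap. Virgin male duodenum had 5.46 to 49.9 CPM of Dbp, with a median of 15.1.

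**Figure D1:**
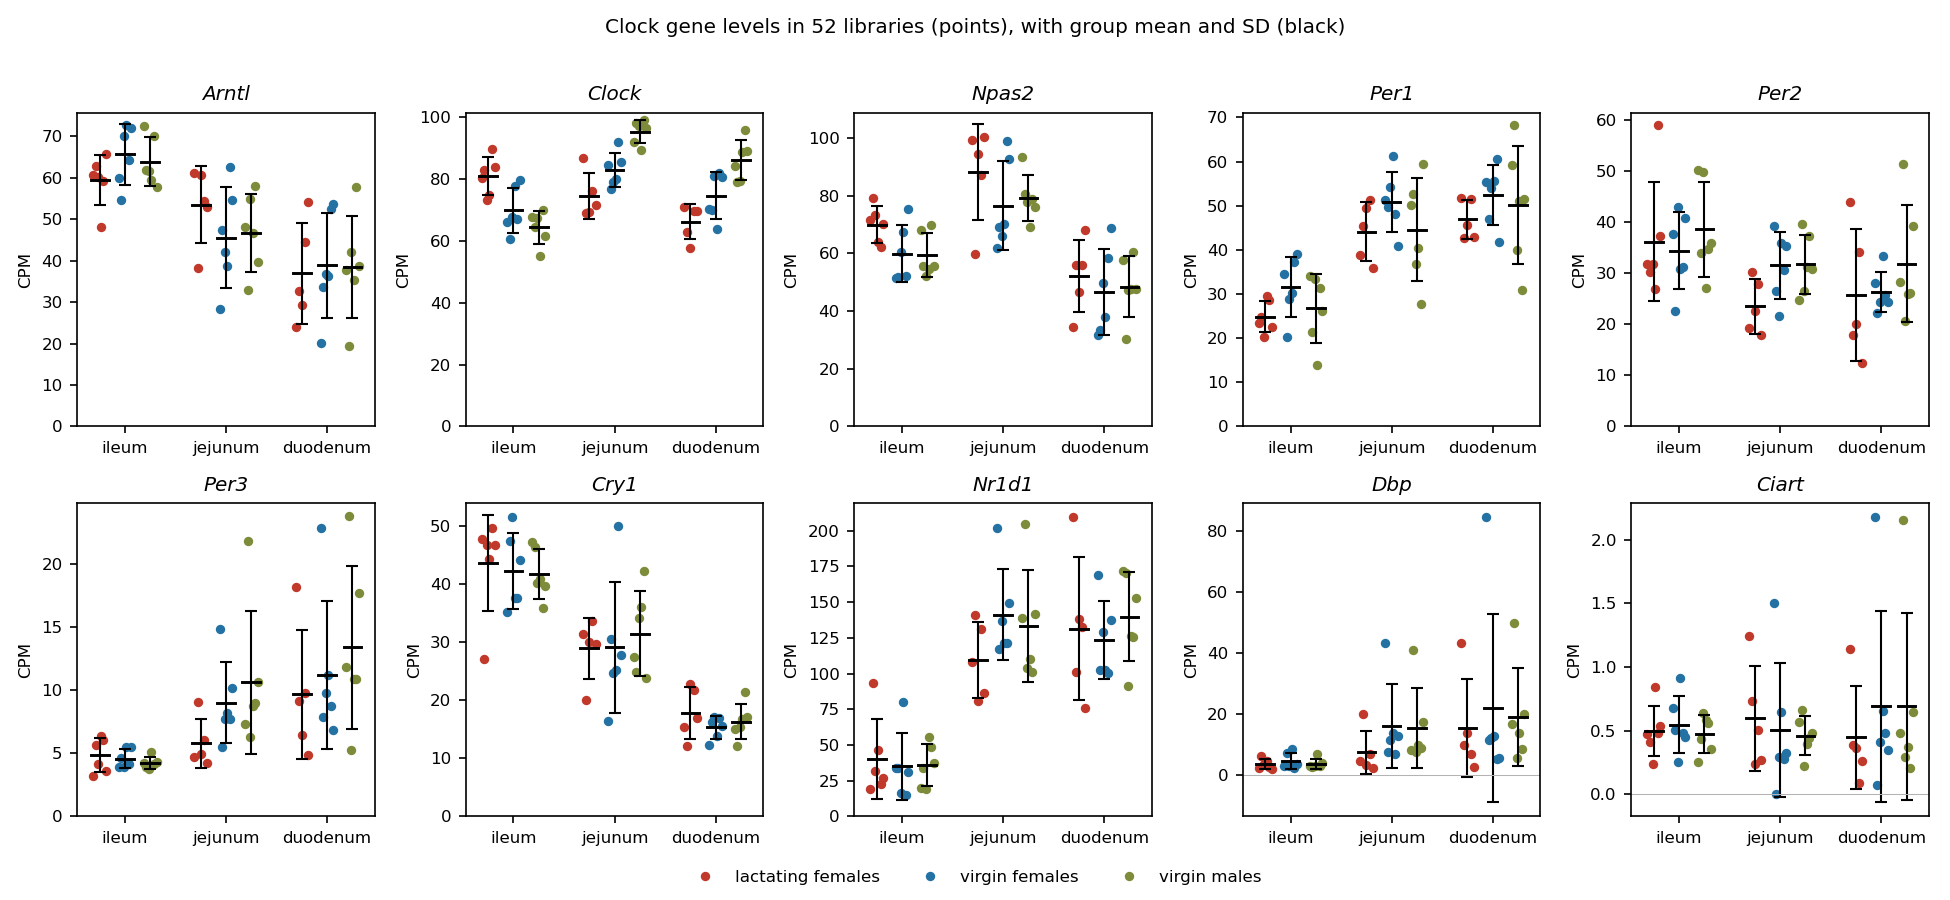
Each panel plots 1 gene's level in CPM (vertical axis, linear from 0 or just below it) by section, with lactating females, virgin females and virgin males side by side. Points are the 52 libraries and black bars the group mean with SD. Group means of Arntl and Cry1 are highest in ileum and lowest in duodenum, those of Nr1d1, Per3 and Dbp are lowest in ileum, and lactating and virgin females of a section overlap in every panel.

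Lactation was the main contrast of the study, and in the clock it gave no call. With edgeR's quasi-likelihood test and Benjamini-Hochberg adjustment over all genes, 0 of 10 members were called between lactating and virgin females in jejunum, ileum or duodenum. The same fits called 1.35% of genes in jejunum (199 of 14783), 2.16% in ileum (327 of 15106) and 0.0132% in duodenum (2 of 15116). At an unadjusted p under 0.05 there were 2 members in jejunum (Clock and Per2), 2 in ileum (Clock and Npas2) and 0 in duodenum, and DESeq2 and limma-voom also called 0 of 10 in each section. The lactating and virgin levels overlapped for all 10 members in all 3 sections, where 2.14% of genes in jejunum, 2.23% in ileum and 0.648% in duodenum did not overlap. The members' median log2 fold change was -0.18 in jejunum, 0.05 in ileum and -0.11 in duodenum, and over all genes it was -0.01, -0.02 and 0.01 in the same order of sections.

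Among the activators, Arntl had 38.1 to 61.1 CPM in lactating female jejunum (median 54.5), against 28.3 to 62.7 CPM in virgin female jejunum (median 44.7). The lactating values lie inside the virgin range. Its log2 fold change was 0.23 ± 0.19 (SE; adjusted p = 0.63 by edgeR). In ileum Arntl had a median of 60.4 CPM in lactating females (48.2 to 65.8) and 67.2 CPM in virgin females (54.7 to 72.9), a log2 fold change of -0.16 ± 0.09 (adjusted p = 0.359). In duodenum it was -0.07 ± 0.27 (adjusted p = 0.971). Its partner Clock was measured most tightly. Clock averaged 74.6 ± 7.4 CPM in lactating jejunum (SD, n = 5) and 83.0 ± 5.5 CPM in virgin female jejunum (n = 6), and 80.9 ± 6.1 CPM in lactating ileum and 69.9 ± 7.4 CPM in virgin female ileum (n = 6 each). The differences were -0.16 ± 0.06 in jejunum (adjusted p = 0.245) and 0.20 ± 0.08 in ileum (adjusted p = 0.167), with opposite signs. Neither passed the test. Npas2 averaged 88.2 ± 16.8 CPM in lactating jejunum against 76.6 ± 15.4 CPM in virgin females, 70.1 ± 6.3 against 59.9 ± 9.9 CPM in ileum, and 52.3 ± 12.5 against 46.7 ± 14.9 CPM in duodenum. Its log2 fold changes of 0.20 ± 0.14, 0.21 ± 0.10 and 0.17 ± 0.21 did not pass (adjusted p = 0.532, 0.267 and 0.893).

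Among the repressors, Per2 had 19.2, 30.2, 22.5, 27.8 and 17.8 CPM in lactating jejunum, against 39.2, 26.4, 21.7, 35.8, 30.7 and 35.3 CPM in virgin female jejunum. The lactating values fill the lower part of the joint range and the groups overlap (-0.42 ± 0.16, adjusted p = 0.222). Per3 averaged 5.79 ± 1.94 CPM in lactating jejunum and 9.01 ± 3.21 CPM in virgin female jejunum (-0.63 ± 0.31, adjusted p = 0.348). Nr1d1 averaged 109.6 ± 26.7 CPM there in lactating and 141.3 ± 32.1 CPM in virgin females (-0.37 ± 0.19, adjusted p = 0.394). In ileum the same 3 genes did not pass, with log2 fold changes of 0.06 ± 0.19 for Per2, 0.07 ± 0.16 for Per3 and 0.17 ± 0.43 for Nr1d1 (95% interval -0.74 to 1.09). Per1, a member that glucocorticoids also induce, averaged 24.9 ± 3.6 CPM in lactating ileum and 31.7 ± 6.8 CPM in virgin female ileum (-0.36 ± 0.18, adjusted p = 0.314). Cry1 was the repressor closest to 0 in jejunum and ileum, at -0.01 ± 0.23 and 0.04 ± 0.13, and its 95% interval in ileum ran from -0.23 to 0.30.

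Dbp, the output gene, gave the widest intervals in jejunum and duodenum. It averaged 7.36 ± 7.15 CPM in lactating jejunum and 15.9 ± 13.8 CPM in virgin female jejunum. The log2 fold change of -1.09 ± 0.64 had a 95% interval from -2.45 to 0.27 (adjusted p = 0.453). It rested in part on single libraries: it was -1.88 without lactating female jejunum 2 and -0.51 without virgin female jejunum 1, with adjusted p from 0.19 to 0.786 over all libraries left out in turn. In duodenum Dbp averaged 15.3 ± 16.2 CPM in lactating and 21.9 ± 30.9 CPM in virgin females (-0.50 ± 0.85, 95% interval -2.32 to 1.31, adjusted p = 0.932). That value turned to 0.72 without virgin female duodenum 1 and was -1.39 without lactating female duodenum 1. Ciart in duodenum behaved alike, at -0.60 ± 0.74 with all libraries, 0.21 without virgin female duodenum 1 and -1.30 without lactating female duodenum 1. In ileum Dbp averaged 3.51 ± 1.67 CPM in lactating and 4.52 ± 2.61 CPM in virgin females (-0.37 ± 0.36, adjusted p = 0.643).

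**Figure D2:**
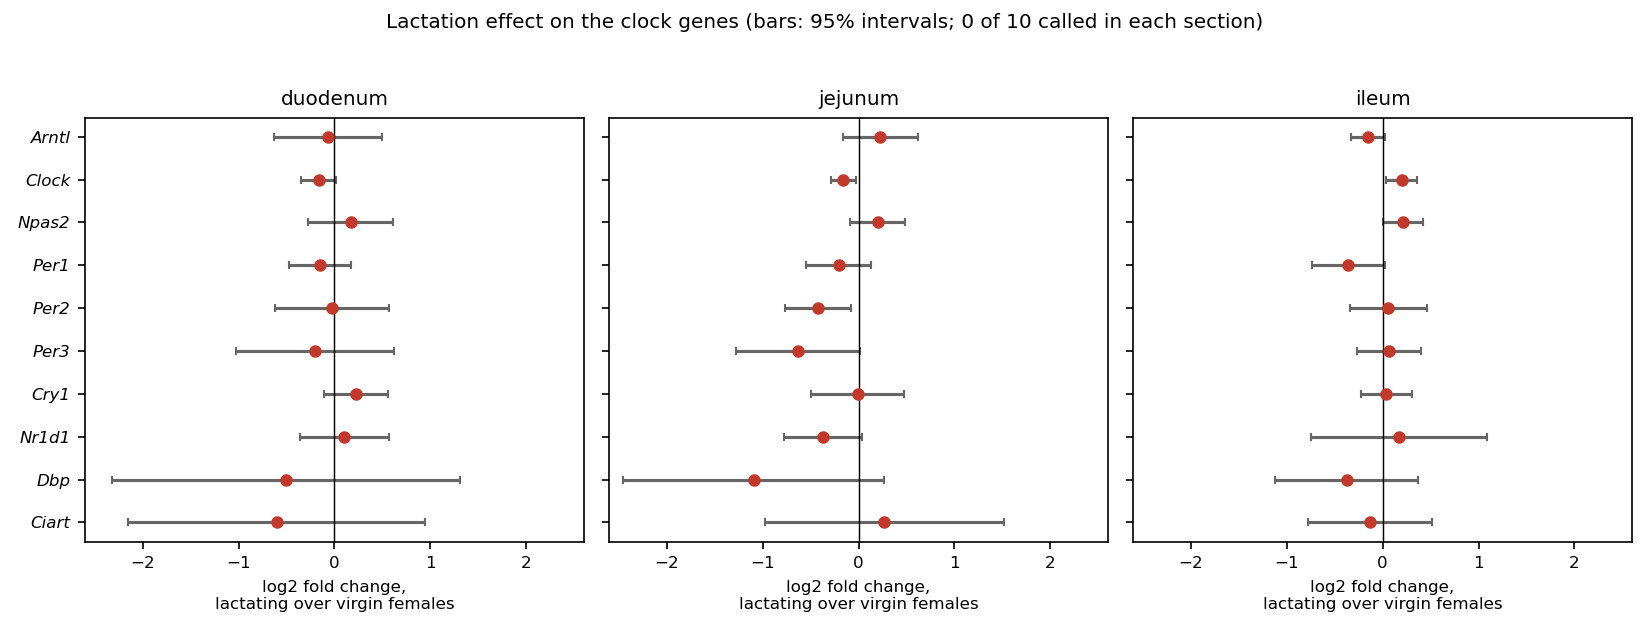
Log2 fold change of lactating over virgin females for each clock gene (points) with its 95% interval (bars), 1 panel per section, with 0 marked by a line. No member passed the adjusted threshold. Clock has the shortest interval in each section and Dbp the widest in jejunum and duodenum, and the intervals that leave out 0, before any adjustment, are those of Clock and Per2 in jejunum and of Clock and Npas2 in ileum.

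The difference of the lactation effect between sections was tested too. Here 0 of 10 members passed between ileum and jejunum, ileum and duodenum, or jejunum and duodenum, where 0.0256%, 0.0703% and 0% of 15637 genes were called. The smallest p values were those of Clock, whose effect in ileum exceeded that in jejunum by 0.35 ± 0.12 (adjusted p = 0.441 by edgeR) and that in duodenum by 0.37 ± 0.12 (adjusted p = 0.491). At an unadjusted p under 0.05 edgeR had 1184, 842 and 584 genes in the 3 differences, and DESeq2 and limma-voom called 0 members in each. Virgin females were then set against virgin males, which do not lactate. Again 0 of 10 members were called in jejunum, ileum or duodenum by edgeR, DESeq2 or limma-voom, where edgeR called 0.0676%, 0.0993% and 0.0331% of genes. Their levels overlapped for all 10 members in each section (0.541%, 0.384% and 0.384% of genes did not overlap). Clock had the smallest p, with 83.0 ± 5.5 CPM in virgin female and 95.4 ± 3.8 CPM in virgin male jejunum (-0.21 ± 0.06, adjusted p = 0.361) and 74.7 ± 7.6 and 86.1 ± 6.5 CPM in duodenum (-0.21 ± 0.08, adjusted p = 0.604).

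Other genes that move with time of day or meals were read from fixed lists. Of 20 further clock and clock output genes, 0 of 20 were called in ileum or in duodenum by edgeR. The list's median log2 fold change was 0.01 in ileum, -0.14 in jejunum and -0.11 in duodenum. Of the fasting response genes, 1 of 13 fell in jejunum and 1 of 13 in ileum, with 0 of 14 in duodenum. Ppara, the fatty acid sensor of the fasted state, averaged 52.9 ± 9.5 CPM in lactating and 83.7 ± 16.9 CPM in virgin female jejunum (-0.66 ± 0.16, adjusted p = 0.0468). Pdk4, which spares glucose in fasting, averaged 13.1 ± 4.2 CPM in lactating and 20.5 ± 4.0 CPM in virgin female ileum (-0.66 ± 0.17, adjusted p = 0.0492). Pck1, of glucose synthesis, averaged 293 ± 225 CPM in lactating and 835 ± 248 CPM in virgin female duodenum without passing (-1.51 ± 0.40, adjusted p = 0.212).

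Of 13 genes of sterol and fatty acid synthesis, which rise after feeding in liver, 0 were called in jejunum or duodenum. In ileum Sqle, a regulated enzyme of cholesterol synthesis, rose to 268.6 ± 30.6 CPM in lactating females, against 198.4 ± 29.95 CPM in virgin females (0.43 ± 0.10, adjusted p = 0.027). Of 12 glucocorticoid response genes, 1 fell in ileum and 0 were called elsewhere. Klf9, a target of that hormone, averaged 66.2 ± 7.5 CPM in lactating and 85.6 ± 6.7 CPM in virgin female ileum (-0.38 ± 0.08, adjusted p = 0.0201). Of 13 immediate early genes 0 were called in any section; Fos, a transcription factor gene induced within minutes of a stimulus, stood at 0.06 ± 0.18 in jejunum (adjusted p = 0.926), 0.36 ± 0.34 in ileum (0.641) and 0.04 ± 0.21 in duodenum (0.978). The lists' medians were -0.34, -0.02 and -0.16 for fasting, 0.11, 0.31 and 0.16 for synthesis, -0.37, -0.20 and -0.12 for glucocorticoid and 0.03, 0.23 and 0.04 for immediate early genes, in jejunum, ileum and duodenum. Among cell type markers in ileum, 4 of 8 enteric neuron and glia markers were lower in lactation (sums of 55.6 to 73.1 CPM against 73.4 to 106.3 CPM in virgin females), 1 of 7 enterocyte markers was higher (28423 to 30713 against 16907 to 26954 CPM), and 1 of 7 immune markers was lower. None of these was called in jejunum or duodenum. The part of these in the gene values was not tested. With 1 library left out the fits called 7 to 136 genes in jejunum and 115 to 1162 in ileum in all, and the list genes called here were not followed through those fits.

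The members differed between sections of the gut. In virgin females, edgeR called 7 of 10 members between ileum and jejunum, where 48% of all genes were called: 2 were higher in ileum (23.8% of all genes) and 5 lower (24.1%). Between ileum and duodenum it called 6 (47% of all genes), 2 higher (21%) and 4 lower (26%). Between jejunum and duodenum it called 2 (37.2%), both higher (17.2%) and 0 lower (20%). In virgin males it called 8 between ileum and jejunum (64%), 2 higher (33.9%) and 6 lower (30.1%), and 8 between ileum and duodenum (65.1%), 3 higher (32.7%) and 5 lower (32.4%). Between jejunum and duodenum it called 2 (49.8%), both higher (24%) and 0 lower (25.8%). Levels of the 2 sections did not overlap for 3, 5 and 0 members in virgin females, in the order of the comparisons above, where 25.2%, 25.1% and 16.8% of genes did not, and for 4, 5 and 2 members in virgin males (43.5%, 41.6% and 25.8%). The total counts called between ileum and either other section stand above the share of all genes, and those between jejunum and duodenum below it. This does not hold for each part. The counts higher in ileum lie below their shares in both sexes. In virgin males the 4 of 10 members not overlapping between ileum and jejunum lie below the 43.5% of genes. With 10 members these counts are a description. Scaled by library totals alone, which moved the median of all genes by 0.35, 0.13 and -0.22 in virgin females and 0.40, 0.16 and -0.24 in virgin males, the split was 3 higher and 1 lower, 4 and 4, and 2 and 0 in virgin females and 3 and 4, 3 and 5, and 2 and 0 in virgin males.

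Of the activators, Arntl was higher in the ileum. In virgin females it had 60.0, 54.7, 70.1, 72.9, 64.3 and 72.1 CPM in ileum, 28.3, 47.4, 42.0, 38.7, 62.7 and 54.6 CPM in jejunum, and 20.2, 33.5, 36.9, 36.3, 52.5 and 53.7 CPM in duodenum. Ileum and duodenum do not overlap, and ileum and jejunum overlap at their edges. The log2 fold change was 0.53 ± 0.20 for ileum over jejunum (adjusted p = 0.0352) and 0.76 ± 0.20 for ileum over duodenum (adjusted p = 0.00411), and 0.46 ± 0.18 (adjusted p = 0.0339) and 0.74 ± 0.18 (adjusted p = 0.00157) in virgin males. The call against jejunum was lost in 7 of 12 fits with 1 library left out in virgin females (without jejunum 1, 3 or 4 or ileum 3, 4, 5 or 6) and in 7 of 12 in virgin males (without jejunum 1, 2, 4 or 6 or ileum 1, 3 or 5). In virgin males it was also lost with no count filter and in 1 fit of all 52 libraries. Npas2 was higher in jejunum than in duodenum, at 76.6 ± 15.4 against 46.7 ± 14.9 CPM in virgin females (0.71 ± 0.18, adjusted p = 0.00447) and 79.4 ± 8.0 against 48.5 ± 10.6 CPM in virgin males (0.72 ± 0.13, adjusted p = 0.000103). In virgin males its ileal level lay between them, with -0.42 ± 0.12 against jejunum (adjusted p = 0.00651) and 0.30 ± 0.12 against duodenum (adjusted p = 0.0416), and the call against duodenum was lost in 9 of 12 fits with 1 library left out (it held without duodenum 1 or 5 or ileum 3) and under 4 of 8 alternative settings. The male call against jejunum was lost under library totals alone. Clock was lower in ileum than in jejunum, with -0.25 ± 0.08 in virgin females (adjusted p = 0.0215) and -0.57 ± 0.07 in virgin males (adjusted p = 4.47e-07), and lower than in duodenum in virgin males (-0.41 ± 0.07, adjusted p = 2.21e-05). The virgin female call of Clock was lost without jejunum 5. Scaled by library totals alone, the virgin female value turned to 0.11 (adjusted p = 0.217), where the median of all genes moved by 0.35.

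Cry1 showed a stepwise order along the gut. It averaged 42.3 ± 6.5 CPM in ileum, 29.1 ± 11.3 CPM in jejunum and 15.3 ± 1.9 CPM in duodenum of virgin females (n = 6 each), and 41.8 ± 4.3, 31.5 ± 7.3 and 16.3 ± 3.1 CPM in virgin males. Ileum and duodenum do not overlap in either sex. All 3 steps passed in virgin females: 0.54 ± 0.18 for ileum over jejunum (adjusted p = 0.0212), 0.92 ± 0.19 for jejunum over duodenum (adjusted p = 0.000785) and 1.46 ± 0.19 for ileum over duodenum (adjusted p = 2.41e-06). The call of ileum over jejunum was lost without ileum 3. In virgin males they were 0.41 ± 0.14, 0.95 ± 0.14 and 1.36 ± 0.14 (adjusted p = 0.0131, 1.64e-05 and 7.07e-08), the call of ileum over jejunum being lost in 1 fit of all 52 libraries. Lactating females, not tested between sections, had 43.7 ± 8.3 CPM in ileum, 29.0 ± 5.3 CPM in jejunum and 17.8 ± 4.5 CPM in duodenum.

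Nr1d1, Per3 and Per1 ran the other way. Nr1d1 had 15.2 to 79.9 CPM (median 32.6) in virgin female ileum, against 117.0 to 202.0 CPM (median 129.1) in jejunum and 100.3 to 168.8 CPM (median 115.7) in duodenum. Every ileal library lies below every library of the other sections. The log2 fold change was -2.01 ± 0.30 against jejunum (adjusted p = 2.58e-05) and -1.81 ± 0.30 against duodenum (adjusted p = 6.08e-05), and -1.90 ± 0.26 and -1.96 ± 0.26 in virgin males (adjusted p = 6.11e-06 and 4.03e-06). Per3 followed, with -0.97 ± 0.27 and -1.29 ± 0.27 in virgin females (adjusted p = 0.00602 and 0.000554) and -1.31 ± 0.32 and -1.65 ± 0.32 in virgin males (adjusted p = 0.00179 and 0.000235). Per1 was lower in ileum with -0.68 ± 0.14 and -0.73 ± 0.14 in virgin females (adjusted p = 0.000432 and 0.000195) and -0.73 ± 0.23 and -0.90 ± 0.23 in virgin males (adjusted p = 0.0101 and 0.00237). Scaled by library totals alone, the ileum against jejunum calls of Per1 in both sexes and of Per3 in virgin females were lost. Per2 lay at the threshold for ileum over duodenum in virgin females (0.38 ± 0.16, adjusted p = 0.0506). It passed under 5 of 8 alternative settings, which were median-of-ratios scaling, library totals alone, DESeq2, the replicate number as a block and a fit of the 2 sections alone. Under library totals alone Per2 was also called higher in ileum than in jejunum in both sexes. The value against duodenum also passed without duodenum 4 or ileum 2, as did the same difference in virgin males without duodenum 2.

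Dbp averaged 4.52 ± 2.61 CPM in ileum, 15.9 ± 13.8 CPM in jejunum and 21.9 ± 30.9 CPM in duodenum of virgin females. Its log2 fold changes were -1.81 ± 0.66 for ileum over jejunum (adjusted p = 0.0308) and -2.28 ± 0.66 for ileum over duodenum (adjusted p = 0.00853). They fell in size to -1.21 without virgin female jejunum 1 and to -1.05 without virgin female duodenum 1 (adjusted p = 0.07), and the call against jejunum was lost in 6 of 12 fits with 1 library left out (jejunum 1 or 6 or ileum 1, 3, 5 or 6), under library totals alone and with no count filter. In virgin males Dbp had 3.67 ± 1.65 CPM in ileum, with -2.06 ± 0.56 against jejunum (adjusted p = 0.00399) and -2.36 ± 0.56 against duodenum (adjusted p = 0.0014). Ciart gave no call between sections.

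Of the 20 further clock genes in virgin females, 8 were lower and 2 higher in ileum than in jejunum, where 24.1% of all genes were lower and 23.8% higher. Against duodenum 6 were lower and 4 higher, near the 26% and 21% of all genes. Nr1d2, the paralogue of Nr1d1, averaged 23.5 ± 10.1 CPM in ileum and 58.8 ± 18.5 CPM in jejunum (-1.32 ± 0.26, adjusted p = 0.000455). Tef, a relative of Dbp that binds the same D-box, averaged 20.8 ± 8.5 and 53.3 ± 16.7 CPM (-1.36 ± 0.28, adjusted p = 0.00063), and Hlf, the third factor of that family, 3.17 ± 0.59 and 7.17 ± 3.21 CPM (-1.17 ± 0.26, adjusted p = 0.000985). Cry2, the paralogue of Cry1, did not follow its order: it averaged 24.1 ± 5.9 CPM in ileum, 31.4 ± 4.0 CPM in jejunum and 14.8 ± 3.3 CPM in duodenum. Tissue makeup differed between these sections. Of 8 smooth muscle markers 4 were higher in virgin female ileum than in jejunum (sums of 4178 to 6695 against 1128 to 6139 CPM), as were 4 of 8 neuron and glia and 6 of 6 fibroblast markers, while 5 of 7 enterocyte markers were lower. The part of makeup in the clock values was not tested. The labels used here give no time of day for any section. In the order of the series the ileum libraries come after all those of jejunum and duodenum. A difference in collection between sections cannot be told apart from section and was not tested.

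**Figure D3:**
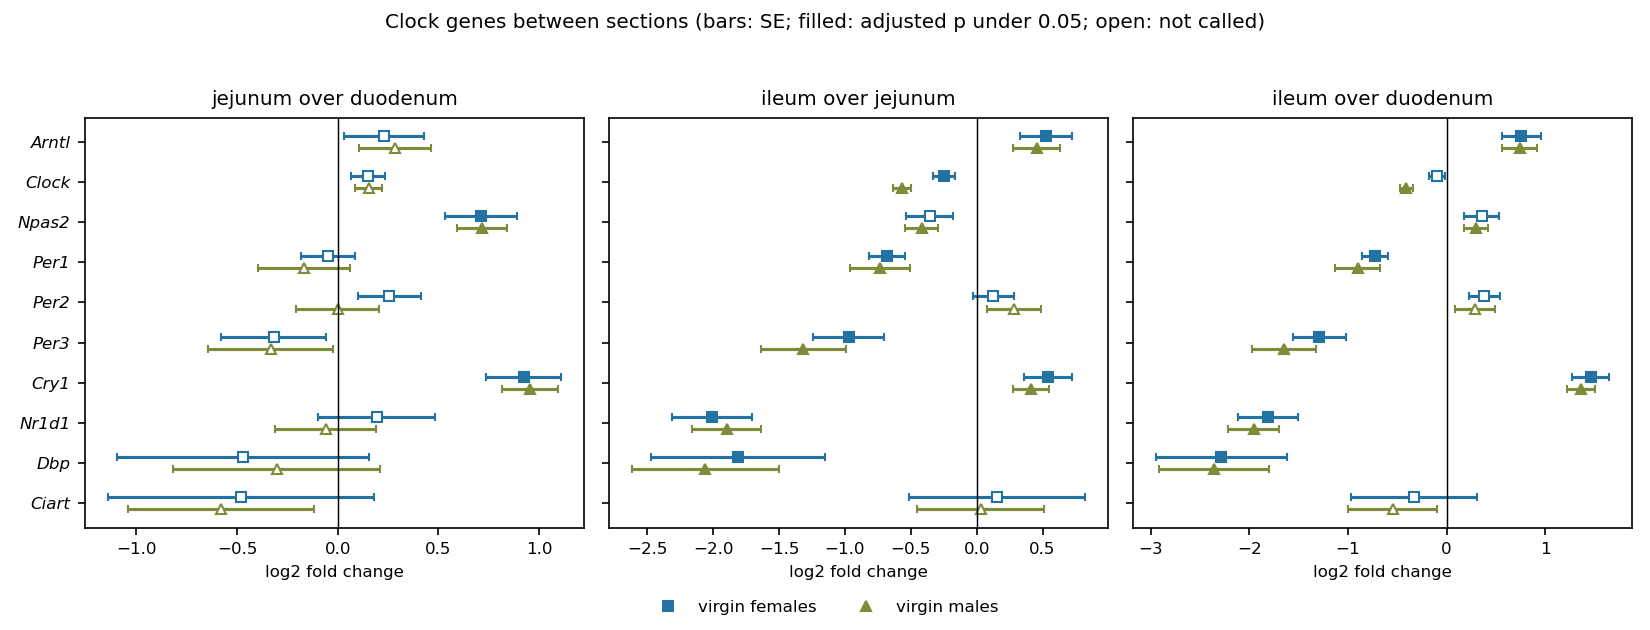
Log2 fold change between sections for each clock gene, with virgin females as squares and virgin males as triangles, SE as bars, and filled symbols for adjusted p under 0.05. Arntl and Cry1 lie above 0 and Per1, Per3, Nr1d1 and Dbp below 0 wherever ileum is the numerator, at similar places in both sexes.

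Within a group, the members did not vary independently. After each group's mean was removed from the log2 levels, Dbp and Arntl moved in opposite directions over the 52 libraries (Pearson r = -0.83, Spearman rho = -0.72, both adjusted p = 4.5e-05 over 9 relations, permutation within groups). The smallest raw p that the permutations can give, 1e-05, was reached. Without the 2 libraries farthest from the median of Arntl, r was -0.78. Virgin female duodenum 1 shows the extreme: it had the highest Dbp of all 52, 84.5 CPM, and 20.2 CPM of Arntl, where virgin female duodenum 4 had 12.7 CPM of Dbp and 36.3 CPM of Arntl. Npas2 moved with Arntl (r = 0.82, rho = 0.77, both adjusted p = 4.5e-05), as did Cry1 (0.57 and 0.50; adjusted p = 0.000112 and 0.00187) and Clock (0.46 and 0.54; adjusted p = 0.00157 and 0.00045).

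Over the 52 libraries together, the other genes of the opposing arm moved against Arntl. Pearson r was -0.68 for Per3 (adjusted permutation p = 6e-05), -0.62 for Ciart (0.000504), -0.36 for Nr1d1 (0.00157) and -0.33 for Per1 (0.0153), with Spearman rho of -0.48, -0.53, -0.41 and -0.31 (adjusted permutation p = 0.00277, 0.000787, 0.00356 and 0.0333). Per2 passed by Pearson (-0.33, adjusted permutation p = 0.042) and not by rank (-0.12, adjusted p = 0.463). The relation of Ciart fell to -0.48 without the 2 farthest libraries. Libraries of equal number may share an animal, in which case the 52 are not all independent.

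The relations were also computed within each section. In duodenum (17 libraries) r with Arntl was -0.92 for Dbp and 0.89 for Npas2, with rho of -0.82 and 0.86 (adjusted permutation p = 0.00081 and 0.00045 by rank). All 9 relations there passed by Pearson and 4 by rank. In jejunum (17 libraries) Cry1 reached 0.89 (rho 0.79), Dbp -0.84 (-0.68), Nr1d1 -0.73 (-0.63), Npas2 0.70 (0.61) and Per1 -0.52 (-0.62), each past the threshold by both measures, and Per3 -0.72 (-0.55) by Pearson alone. In ileum (18 libraries) Npas2 (r = 0.78, rho = 0.80, adjusted permutation p = 0.00495 and 0.0063) and Clock (0.71 and 0.73, adjusted permutation p = 0.0113 and 0.0108) passed, and the other 7 did not, Dbp standing at -0.28 (adjusted permutation p = 0.461). Per1 and Per2 stood at 0.30 and 0.47 in ileum, opposite in sign to duodenum and jejunum. Per3 and Ciart stayed negative there, at -0.19 and -0.32. Without the 2 libraries farthest in Arntl, r for Dbp was -0.87 in duodenum, -0.71 in jejunum and near 0 in ileum. The differences between sections in r were not tested, and the ileum also had the narrowest range of both genes, with 1.88 to 8.50 CPM of Dbp and 48.2 to 72.9 CPM of Arntl. Not every member varied less there. Nr1d1 had a coefficient of variation of 41.0% to 69.4% in the ileum groups and 22.2% to 38.2% in the others, and its r with Arntl in ileum was -0.06.

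The ratio of Dbp to Arntl in a library sums up this axis. In duodenum it ran from 0.0486 to 1.81 in lactating females (median 0.303), from 0.0993 to 4.18 in virgin females (median 0.332) and from 0.130 to 2.57 in virgin males (median 0.413). In jejunum it ran from 0.0428 to 0.519 in lactating females (median 0.0759), from 0.107 to 1.53 in virgin females (median 0.252) and from 0.134 to 1.25 in virgin males (median 0.186). In ileum the medians were 0.0509 in lactating females, 0.0471 in virgin females and 0.0451 in virgin males, and no library exceeded 0.130. The lactating jejunum median lies below the lowest virgin library and its highest library inside the virgin range. The 2 libraries left out had 37.3 CPM of Dbp and 31.1 CPM of Arntl (labelled lactating female duodenum 3) and 23.0 and 30.2 CPM (labelled lactating female jejunum 3). The CPM of these 2 come from scaling over all 54 libraries, and the other values from scaling over the 52 used.

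**Figure D4:**
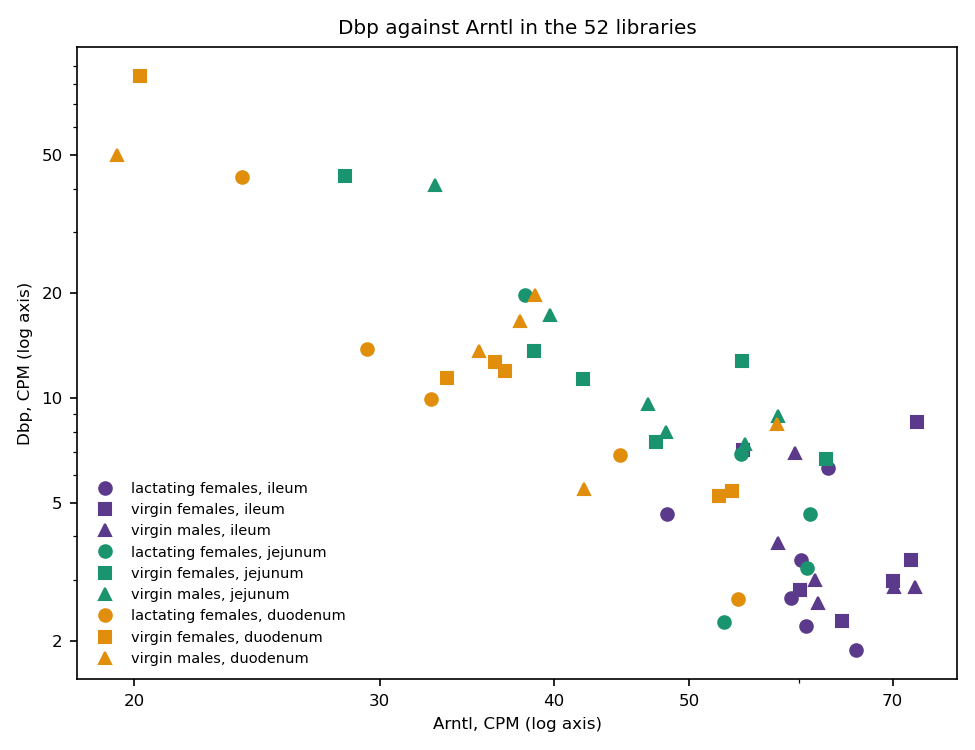
Dbp against Arntl in CPM, both on log axes, for the 52 libraries, with the section marked by colour and the group by symbol. Libraries run from low Arntl and high Dbp to high Arntl and low Dbp. The ileum libraries sit together at 48.2 to 72.9 CPM of Arntl. Lactating and virgin ranges overlap within each section. In jejunum lactating females 1, 4 and 6 (4.63, 3.24 and 2.27 CPM of Dbp) lie below every virgin library (lowest 6.69 CPM).

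Genes outside the 10 were ranked by how closely their deviations followed those of Arntl and Dbp over the same 52 libraries, among 12180 genes. The 8 most like Dbp were Tef (r = 0.88), Nr1d2 (0.82), Hlf (0.71), Cipc (0.61), Gtf2a2 (0.60), Tbcel (0.60), Usp2 (0.60) and Selenow (0.59). Cipc encodes a repressor of CLOCK, and Tef and Hlf stand beside Dbp in 1 family. For Tef r was 0.95 in duodenum, 0.93 in jejunum and 0.75 in ileum, and for Hlf 0.76, 0.89 and 0.10. Among those most like Arntl were Nfil3 (0.82), which encodes a repressor at the D-box, Gtf2ird1 (0.81), Denn2b (0.80), Aldh18a1 (0.78), Nol4l (0.77), Rnf125 (0.75) and Ypel2 (0.74). Nfil3 followed Arntl in duodenum and jejunum (0.93 and 0.85) and not in ileum (-0.09). These values describe likeness only and carry no test.

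The libraries that stood out were set beside those of equal number in the next section, a look taken after the values were seen. The highest Dbp in virgin female duodenum and in virgin female jejunum was that of number 1 (84.5 and 43.4 CPM), and in virgin males that of number 2 in both sections (49.9 and 40.9 CPM). In lactating females it was that of number 1 in duodenum (43.3 CPM) and of number 2 in jejunum (19.8 CPM). Over 17 pairs of equal number, the deviations in jejunum and duodenum correlated positively for all 10 members, with r from 0.32 to 0.79 and a median of 0.64. By group r ran from -0.24 to 0.78 over the members in lactating females (5 pairs), from 0.52 to 0.98 in virgin females and from -0.03 to 0.90 in virgin males (6 pairs each). For Arntl it was -0.19, 0.94 and 0.90 and for Dbp 0.19, 0.88 and 0.89 in the same order of groups, as a description with no test of the difference. Of 30 relations over 3 pairs of sections, Ciart (r = 0.79, rho = 0.70) and Cry1 (r = 0.65, rho = 0.61) passed between jejunum and duodenum by Pearson (adjusted permutation p = 0.0232 for both) and none by rank (adjusted permutation p = 0.127 for Ciart and 0.166 for Cry1). For Dbp r was 0.62 (adjusted permutation p = 0.0844), and without the 2 farthest libraries 0.62, while for Arntl r was 0.66 and 0.36 without them. In all, 0 of the 30 passed without the 2 farthest. Ileum showed a median r of 0.08 with jejunum and 0.06 with duodenum, and none passed.

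**Figure D5:**
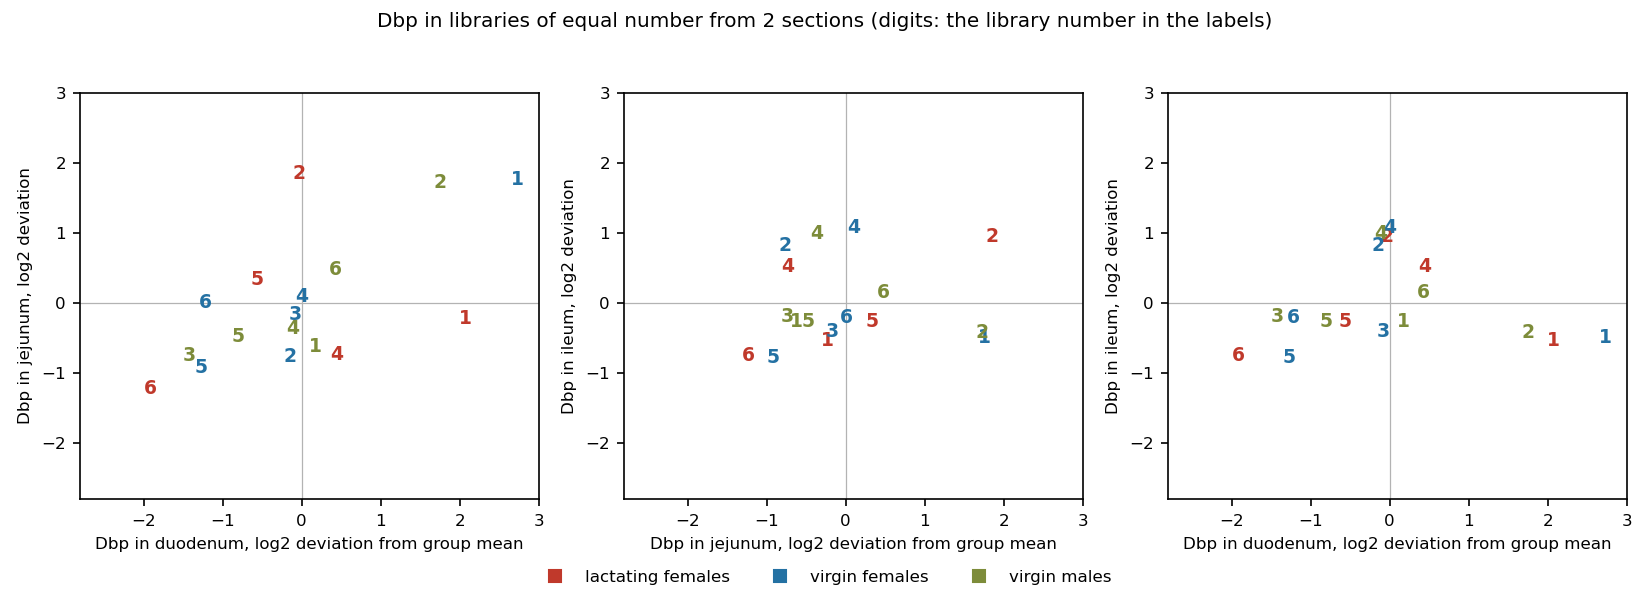
Deviation of log2 Dbp from its group mean in 1 section against that in another for the 17 pairs of libraries of equal number and group, 1 panel per pair of sections, drawn as the library number and coloured by group. Pearson r is 0.62 between jejunum and duodenum, 0.12 between ileum and jejunum and 0.01 between ileum and duodenum, none of which passed the adjusted test.

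The libraries highest in Dbp were checked for other signs that set them apart. Their liver markers summed to 3.06 to 8.35 CPM in jejunum and duodenum, at or below the highest of the other libraries of their group but for virgin male jejunum 2 (3.88 CPM, others at most 3.36). Reads assigned to no gene made up 16.6% to 19.8% in them. In virgin female jejunum 1, lactating female jejunum 2, virgin male jejunum 2 and virgin male duodenum 2 that share was the highest of the group. Smooth muscle markers summed above every other library of the group in 3 of these 6 libraries: to 4786 CPM in virgin female duodenum 1 (others 1716 to 3297 CPM), to 3331 CPM in lactating female duodenum 1 (others 1971 to 2621 CPM) and to 4779 CPM in lactating female jejunum 2 (others 2941 to 4726 CPM). They summed below all others in virgin male jejunum 2 (671 CPM, others 2288 to 4794 CPM) and lay inside the range of the others in virgin female jejunum 1 and virgin male duodenum 2. Enterocyte markers summed below all others of the group in lactating female jejunum 2 (26083 CPM, others from 29138 CPM) and in virgin male duodenum 2 (11661 CPM, others from 12332 CPM). Exocrine pancreas markers summed to 16083 CPM in virgin male duodenum 2, above the others of its group (0.528 to 14655 CPM). In virgin female duodenum 1 (823 CPM) and lactating female duodenum 1 (0.428 CPM) they lay inside their groups, which ran to 8914 and 14328 CPM. In jejunum they reached at most 0.555 CPM. Immune markers summed below all others of the group in virgin female duodenum 1 (122 CPM, others 179 to 527 CPM). The part of these in the clock levels was not tested.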

How the data were processed

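Polyadenylated RNA of whole ileum, jejunum and duodenum was sequenced with a strand-keeping kit, per the labels' protocols. The deposited tables hold raw counts of reads per gene. The submitters' processing notes list STAR 2.7.7a, FastQC 0.11.5, DESeq2 1.34.0 and GRCm38 without roles; the annotation is not given in the sources used here. Sense-strand counts were taken for each symbol, and reads assigned to no gene (11.1% to 20.9%) stayed out of library sizes. Genes with too few reads were dropped by edgeR's filterByExpr (at least 10 reads in a group's worth of libraries and 15 in total). Scaling was by edgeR's trimmed mean method (TMM), and edgeR 4.0.16 fitted quasi-likelihood models within each section (lactating females, virgin females, virgin males) and, for sections, within each group of virgin animals. Lactation by section was 1 model of both female groups. A call is an adjusted p under 0.05 over all genes tested. Relations between genes used log2 CPM (prior count 2) less the group mean, with 1e+05 permutations within groups.

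Limits of the precision are the 5 or 6 libraries a group, low counts for Ciart, and for Dbp the wide spread between libraries of a group. DESeq2 1.42.0 and limma-voom 3.58.1, other scalings, filters and left-out libraries were alternatives. Tested on simulated data, the models missed part of the changed genes, and more of the smaller changes than of the larger, so a gene not called may still differ. The members and gene lists were chosen with earlier results of these data known. Beside the members, the rule for naming took from each further list the called genes with the largest change under lactation, or the 2 of highest level where none was called, and the 8 genes most like Arntl or Dbp; not every gene so named is given, and a few results, with the list counts that rest on them, are not reported here. Nr1d2, Tef, Hlf and Cry2 between sections were named after their values were seen.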

Additional observations from a re-analysis of the deposited data

Results flagged for a closer look

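In 16 of the 90 sets of 1 gene in 1 group, 1 library stood far from the others by Dixon's criterion at 95%. For independent sets of normal spread, chance gives about 1 in 20. These sets share libraries and CPM was used without a log scale, so the 16 cannot be set directly against that rate. Dbp gave 7 of them. The high library was number 2 in lactating female jejunum (19.8 CPM), number 1 in lactating female duodenum (43.3), number 1 in virgin female jejunum (43.4) and duodenum (84.5), number 2 in virgin male jejunum (40.9) and duodenum (49.9), and number 4 in virgin male ileum (6.92 CPM). Ciart was high in 3 of the same duodenum libraries, at 1.14 CPM in lactating female 1, 2.18 CPM in virgin female 1 and 2.16 CPM in virgin male 2, which rest on 24, 52 and 47 reads. Per3 was high in virgin female duodenum 1 (22.8 CPM) and virgin male jejunum 2 (21.8 CPM).

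The other 4 lie in ileum. Nr1d1 was high in lactating female ileum 2 (93.4 CPM) and in virgin female ileum 4 (79.9 CPM). Lactating female ileum 2 was also low in Cry1, at 27.2 CPM where the others had 44.3 to 49.7 CPM. Per2 was high in lactating female ileum 5, at 59.0 CPM where the others had 26.9 to 37.3 CPM. The lactation value of Nr1d1 in ileum was -0.26 without lactating female ileum 2 and 0.59 without virgin female ileum 4, and that of Per2 was -0.14 without lactating female ileum 5; none of these passed the test.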

How the results depend on the processing

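The counts of 0 members for lactation, sex and the difference of lactation between sections were 0 under all alternative scalings, filters, tools and sample sets run, and with each library left out in turn. Between sections, library totals alone gave 4 members for virgin female ileum against jejunum, with Clock at 0.11, and the mean levels of 11 of 90 gene and group pairs moved by over 1 SD; the cause was not tested. With 1 library left out the counts ran from 4 to 7 for virgin female ileum against jejunum (4 without virgin female ileum 3) and from 2 to 4 for virgin male jejunum against duodenum (4 without virgin male duodenum 5). Relations between equal-numbered libraries that passed numbered 0 without the 2 farthest libraries. With the replicate number as a block, the members called were 0 for lactation, sex and the difference of lactation between sections. Between sections they were 2, 8 and 8 for jejunum against duodenum, ileum against jejunum and ileum against duodenum in each sex. Over 12544 genes, libraries of equal number were compared between sections, within lactating females, virgin females or virgin males. They did not correlate above 0.1 in every pair of any comparison (median r from -0.08 to 0.15). Between these kinds of animal in 1 section, where no animal can be shared, the medians ran from -0.18 to 0.17. A low r over all genes, where tissue makeup also varied between libraries, cannot exclude a shared animal. Equal numbers were not treated as pairs in the main fits because the labels do not say what they mark. Counts over all genes moved more: lactation called 0 to 121 genes in duodenum, 23 to 546 in jejunum and 155 to 891 in ileum over the alternatives, and 1 to 20, 7 to 136 and 115 to 1162 with 1 library left out. Between sections of virgin females the alternatives called 7197 to 9822 genes (ileum against jejunum), 6968 to 8365 (ileum against duodenum) and 5302 to 7035 (jejunum against duodenum). In virgin males they called 9238 to 11422, 9559 to 10525 and 6891 to 8765. With 1 library left out, virgin female ileum against jejunum had 6161 to 7914 and virgin male jejunum against duodenum 6966 to 7723. Low counts limit Ciart, which had 0 reads in 1 library.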
